A study of Mus musculus with 6 samples.

Results

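Chemokines are small secreted or membrane-anchored proteins that direct the migration of white blood cells, and 34 genes of chemokine ligands and receptors were followed here in obstructed mouse kidneys with and without the microRNA gene Mir92b. The genes were taken by symbol from the kidney read-count table and ordered by the leukocyte that each one attracts. Of the 34 symbols, 33 had a row among the 34714 rows of the table, and 32 passed the filter on low counts, 27 ligands and 5 receptors. Cxcl11 was not analysed here, and Ackr1 was too low to test. Per the labels, the mice were male and 8 weeks old at surgery, and every kidney came from an animal whose left ureter had been tied, an operation called unilateral ureteral obstruction (UUO), and was taken 10 days later. The 3 knockout libraries are from miR-92b-/- mice of strain C57BL/6JGpt- Mir-92bem22Cd549/Gpt, in which the microRNA is missing from all cells, and the 3 wild-type libraries are labelled WT, on C57BL/6J in the protocol. Nothing in the labels ties each replicate to an animal of its own, so the spread behind the p-values may be technical. The treatment protocol describes the ligated kidneys as nonfibrotic controls while the treatment label says UUO, and sham-operated kidneys were not analysed here.

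Ligands carry a CC, CXC or CX3C pattern of cysteines and bind receptors that signal through inhibitory G proteins and pull the cell up the gradient. In an obstructed kidney, injured tubule cells, endothelium, fibroblasts and resident macrophages are known sources. CXC ligands such as Cxcl1 and Cxcl2 call neutrophils through Cxcr2. Ccl2, Ccl7 and Ccl12 call monocytes through Ccr2, and Cxcl9 and Cxcl10 call effector T cells through Cxcr3. Many of these genes lie in clusters. Cxcl5, Cxcl1 and Cxcl2 lie between 90759298 and 90905938 on chromosome 5 (GRCm38), and the Ccl2, Ccl7, Ccl11, Ccl12 and Ccl8 genes lie between 82035577 and 82116799 on chromosome 11.

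The libraries held 44476507, 46804547 and 50769801 counts in the knockout and 38738204, 47893534 and 51932509 counts in the wild type. Kidney tubule markers, 10 genes in all, summed to 2637 to 7882 CPM (normalised counts scaled to library size by TMM) in the knockout and 3663 to 7219 CPM in the wild type, so the tissue label was borne out in each library. The table holds no microRNA row, and the deletion itself could not be checked. Wild-type replicate 3 stood apart in 12 immediate early genes, which cells switch on within minutes of a stimulus. The list was drawn up after its values had been seen. Its summed level was 842, 812 and 712 CPM in the knockout and 1179, 1377 and 3418 CPM in the wild type, and Fos alone had 17.9, 16.1 and 13.3 CPM in the knockout against 63.5, 84.4 and 377 CPM in the wild type. All 12 had a fold change below 0, and the groups of 9 did not overlap, against 7.20% of all genes on the lower side. DESeq2 called 4 of the 12 lower in the knockout (Fos, Egr1, Dusp1 and Zfp36), against 28 lower and 0.328% called in either direction among all genes, and edgeR called 0. Skeletal muscle markers also set the groups apart, at 0.570, 0.408 and 0.258 CPM in the knockout and 4.87, 4.92 and 4.40 CPM in the wild type, as a sum of 6 genes. The adipocyte marker Adipoq had 19.4, 0.0429 and 0.516 CPM in the knockout and 0.212, 4.59 and 0.0425 CPM in the wild type, high in knockout replicate 1 and wild-type replicate 2. Red blood cell markers summed to 94.9, 129.9 and 122 CPM in the knockout and 110.5, 81.8 and 62.5 CPM in the wild type. The part of these markers in the chemokine values was not tested.

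Mir92b encodes miR-92b-3p, whose seed, bases 2 to 8, pairs with matching letters in the 3' ends of messenger RNAs. The mature sequences are shown because other genes make microRNAs with the same seed. All are from RefSeq with build GRCm38.p6, 5′ to 3′, with the seed in capitals. The mature miR-92b-3p lies at chr3:89227126-89227147 on the minus strand.
mmu-miR-92b-3p: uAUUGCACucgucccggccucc
mmu-miR-92a-3p: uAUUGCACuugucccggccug
mmu-miR-25-3p: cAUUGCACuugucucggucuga
mmu-miR-32-5p: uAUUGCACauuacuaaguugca
mmu-miR-363-3p: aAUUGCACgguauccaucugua

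Matches to this seed were about as frequent in the chemokine messages as in all genes. In the longest annotated 3' UTR of each gene (GENCODE M21, GRCm38), 4 of the 32 tested genes (12.5%) held an 8mer (GTGCAATA), its first 7 bases GTGCAAT (7mer-m8) or its last 7 bases TGCAATA (7mer-A1). Over all tested genes with a 3' UTR the share was 2055 of 15375 (13.4%). The 8mer was in 0 of the 32, against 407 of all tested genes (2.65%). The median 3' UTR was 871.5 bases in the chemokine genes and 1114 bases in all. The 4 sites are printed with 9 bases on each side, the match in capitals, in the sense of the message. They belong to the scavenging receptor gene Ackr3 (chr1:90215551-90215557, plus strand), the mucosal ligand Ccl25 (chr8:4359834-4359840, plus), the receptor Ccr1 (chr9:123962906-123962912, minus) and the B cell attractant Cxcl13 (chr5:95960748-95960754, plus).
Ackr3: tttatatctGTGCAATgtttaatgc
Ccl25: ctaattaaaTGCAATAgccacatac
Ccr1: gaggataaaTGCAATAgcattgata
Cxcl13: gggaagctgGTGCAATgccatcatg
Their log2 fold changes (knockout over wild type) were -0.25 for Ackr3, -0.34 for Ccl25, 0.14 for Ccr1 and 0.97 for Cxcl13, on either side of 0. A match of letters is a description and does not show that the site is used.

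Per transcript length, the membrane-bound ligands had the highest level on average over the 6 libraries. Cx3cl1 (fractalkine), which endothelium and epithelium display and which binds Cx3cr1 on monocytes and macrophages, averaged 254 ± 77.0 TPM (counts per transcript length, scaled to a fixed library sum) in the knockout and 170 ± 20.5 TPM in the wild type (SD, n = 3 each). Cxcl16, a scavenger receptor and Cxcr6 ligand, averaged 219 ± 25 TPM in the knockout and 189 ± 39.6 TPM in the wild type. Next by the mean of all 6 libraries came Cxcl1, Ccl2, Ccl6 and Ccl5. Cxcl1 averaged 122 ± 38.4 TPM in the knockout and 243 ± 106 TPM in the wild type, so that in the wild type it stood above Cx3cl1 and Cxcl16, though by less than its own spread. The lowest tested genes were Ccl11, Cxcr2 and Cxcl13, the last at 0.983 ± 0.642 TPM in the knockout and 0.477 ± 0.145 TPM in the wild type. Of the 31 pairs of neighbours in this order, 25 differed by less than the larger SD in the knockout and 24 in the wild type.

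**Figure D1:**
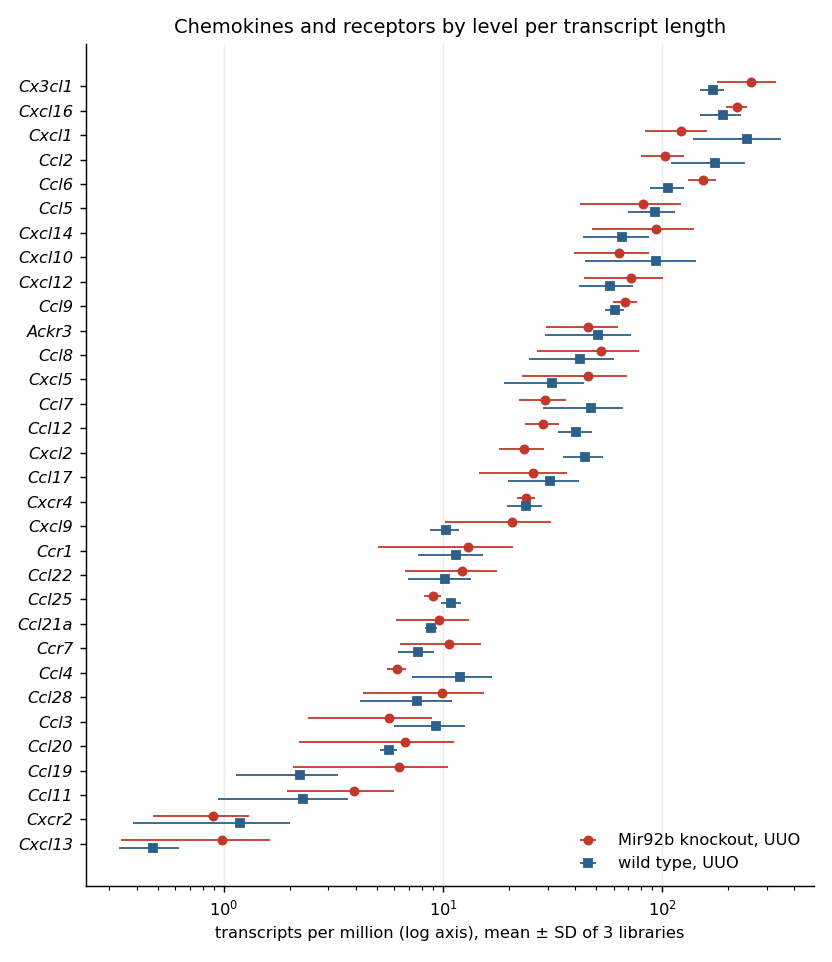
Level per transcript length of the 32 tested genes, in TPM on a log axis, with the mean and SD of 3 knockout libraries (circles) and 3 wild-type libraries (squares). Cx3cl1, at 254 TPM in the knockout and 170 TPM in the wild type, and Cxcl16 stand at the top of the order, which is by the mean of all 6 libraries, although Cxcl1 is higher in the wild type (243 TPM). Cxcl13 stands at the bottom, under 1 TPM in both groups.

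None of the 32 genes passed the edgeR test at an adjusted p under 0.05, where 0% of all 18927 tested genes passed, and adjusted p-values ran from 0.627 to 0.974. DESeq2 called 0 of the 32 (smallest adjusted p = 0.138, Cxcl2) and 0.328% of all genes, and limma-voom called 0 of the 32 (smallest adjusted p = 0.264). At an unadjusted p under 0.05, 8 of the 32 (25%) stood out with edgeR, 3 with a higher mean in the knockout and 5 with a lower one, against 7.90% of all genes in either direction. The values below are therefore differences that did not survive correction over all genes. Log2 fold changes ran from -1.12 for Cxcl1 to 1.43 for Ccl19, with 18 above 0 and 14 below and a median of 0.11, against -0.02 over all tested genes. All 3 knockout libraries lay above all 3 wild-type libraries for 1 gene, Cx3cl1 (8.95% of all genes), and below them for 3 genes, Cxcl2, Ccl4 and Ccl25 (7.20% of all genes). Summed over all members, the level was 1223, 1567 and 1208 CPM in the knockout and 988, 1259.9 and 1521 CPM in the wild type, and the groups overlapped.

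**Figure D2:**
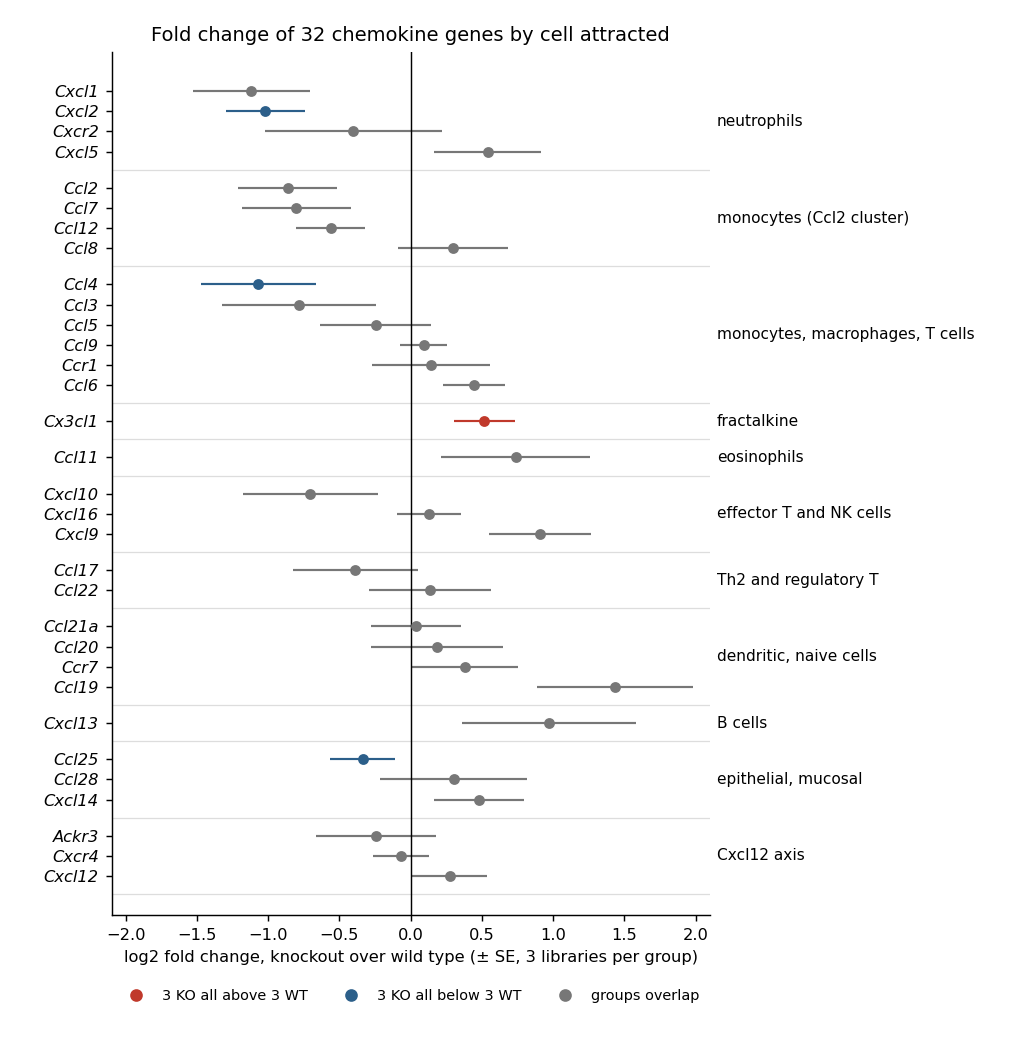
Log2 fold change, knockout over wild type, with its SE for the 32 tested genes (3 libraries per group), grouped by the cells attracted. Points are coloured where all knockout libraries lie above or below all wild-type libraries, which is so for Cx3cl1 on the higher side and for Cxcl2, Ccl4 and Ccl25 on the lower side.

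The neutrophil ligands Cxcl1 and Cxcl2 had means in the knockout near 1 log2 unit under those of the wild type, while their relative Cxcl5 had its highest value in a knockout kidney. Cxcl2 had 22.2, 15.1 and 14.5 CPM in the knockout and 28.0, 27.6 and 49.5 CPM in the wild type. Every knockout library lay below every wild-type library, and the log2 fold change of -1.02 ± 0.28 (SE) had the smallest p of the set (unadjusted p = 0.00646, edgeR adjusted p = 0.627). Cxcl1, the main mouse ligand of Cxcr2, had 63.7, 35.0 and 39.6 CPM in the knockout and 56.1, 78.9 and 166 CPM in the wild type. The groups overlapped through knockout replicate 1 and wild-type replicate 1, and wild-type replicate 3 was far above the others. The log2 fold change of Cxcl1 was -1.12 ± 0.41 (unadjusted p = 0.0267, edgeR adjusted p = 0.627), and it was -0.55 without wild-type replicate 3, where Cxcl2 was at -0.68. In bulk kidney, fewer cells that make a message and less message per cell cannot be told apart.

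Cxcl5, which epithelial cells make, had 21.8, 18.7 and 46.0 CPM in the knockout and 24.7, 21.6 and 13.2 CPM in the wild type. Knockout replicate 3 was high and wild-type replicate 3 was low, and the log2 fold change of 0.54 ± 0.37 shrank to 0.029 without knockout replicate 3. Cxcl3, a further CXC ligand outside the set, averaged 2.29 CPM in the knockout and 1.53 CPM in the wild type, at 0.59 ± 0.55 with overlap. The receptor Cxcr2, carried by neutrophils, stood between 0.547 and 1.48 CPM in the knockout and between 0.383 and 1.98 CPM in the wild type, at -0.40 ± 0.62. Neutrophil marker genes were scarce. Their sum was 26.0, 31.4 and 62.1 CPM in the knockout and 59.2, 36.9 and 24.9 CPM in the wild type, and 0 of the 7 tested markers stood out at an unadjusted p under 0.05. S100a8, a calcium-binding protein gene, averaged 2.29 CPM in the knockout and 2.87 CPM in the wild type, while Mmp9 averaged 7.86 CPM in the knockout and 4.23 CPM in the wild type, both with overlap. Csf3r was the largest single part of the sum in each library. It stood between 18.2 and 20.2 CPM in the knockout and between 14.7 and 29.9 CPM in the wild type, at -0.14 ± 0.25 with overlap. Ly6g and Camp, also on the list, had at most 3 counts in every library.

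Over the 6 libraries, Cxcl1 and Cxcl2 were highest in the library in which the immediate early genes were highest, wild-type replicate 3. That library was also the highest for Ccl2, Ccl7 and Ccl4, and held the highest level of 15 of the 32 tested genes. Without it the fold changes of Cxcl1, Cxcl2, Ccl2, Ccl7 and Ccl4 were smaller in size. Such a change had to follow, since leaving out the highest wild-type library lowers the wild-type mean. It is therefore no test of a link to the immediate early genes. The part of the immediate early genes in these differences was not tested.

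**Figure D3:**
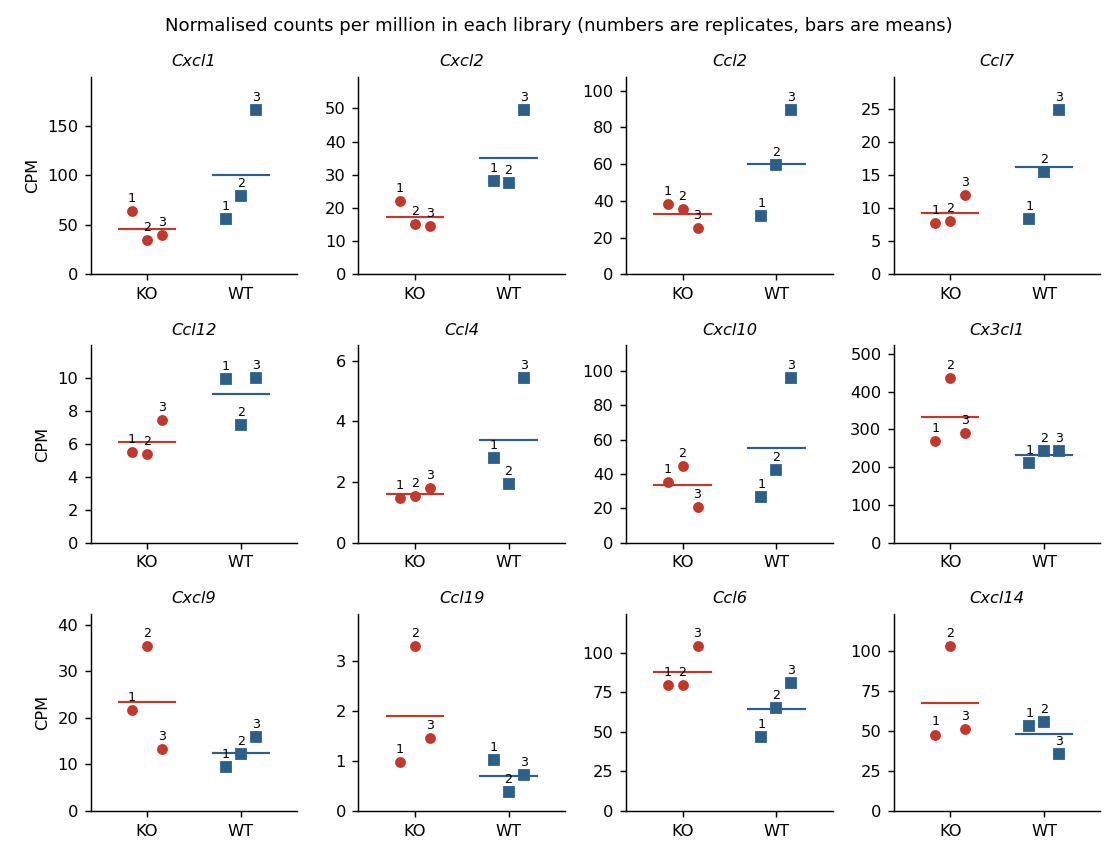
CPM in each library for 12 genes, with knockout libraries as circles, wild-type libraries as squares, replicate numbers beside the points and bars at the group means. Wild-type replicate 3 holds the highest value of Cxcl1 (166 CPM), Cxcl2, Ccl2, Ccl7, Ccl12, Ccl4 and Cxcl10, and knockout replicate 2 that of Cx3cl1 (435 CPM), Cxcl9, Ccl19 and Cxcl14.

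The ligands grouped with Ccl2 divided in the same way, with Ccl2, Ccl7 and Ccl12 lower on average in the knockout and Ccl8 not. Ccl2, the main monocyte attractant, had 38.5, 35.6 and 25.1 CPM in the knockout and 32, 59.3 and 89.4 CPM in the wild type. The wild-type libraries were spread wide, and the lowest of them lay among the knockout values. Its log2 fold change was -0.86 ± 0.35 (unadjusted p = 0.0399, edgeR adjusted p = 0.627), and -0.46 without wild-type replicate 3. Ccl7, another Ccr2 ligand, had 7.82, 8.01 and 12.0 CPM in the knockout and 8.35, 15.4 and 24.8 CPM in the wild type. It overlapped in the same manner, at -0.80 ± 0.38, and stood at -0.35 without wild-type replicate 3.

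Ccl12 is a further Ccr2 ligand of the mouse. It had 5.50, 5.39 and 7.45 CPM in the knockout and 9.95, 7.16 and 9.98 CPM in the wild type, with an overlap of 1 knockout and 1 wild-type library. The log2 fold change was -0.56 ± 0.24 (unadjusted p = 0.0480, edgeR adjusted p = 0.627). Ccl12 lay between -0.73 and -0.48 with any single library left out, and at -0.25 once a trend of fold change with transcript length was removed. Ccl8, which sits beside these genes and is made by tissue macrophages, had 8.48, 6.72 and 16.9 CPM in the knockout and 12.1, 7.44 and 6.70 CPM in the wild type. It stood at 0.29 ± 0.39 with all libraries and at -0.20 without knockout replicate 3. Ccr2, which Ccl2, Ccl7 and Ccl12 bind, had 137, 119 and 89.2 CPM in the knockout. In the wild type Ccr2 had 102, 135 and 140 CPM, a log2 fold change of -0.13 ± 0.20 with overlapping groups.

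Macrophage marker genes did not follow the means of Ccl2 and its neighbours. The 14 monocyte and macrophage markers summed to 2017, 2297 and 2361 CPM in the knockout and 1724, 1805 and 1804 CPM in the wild type, without overlap. Of these 14, 10 had a fold change above 0, 5 did not overlap between the groups and were higher in the knockout (8.95% of all genes), and 0 passed the adjusted threshold. Lyz2, a lysozyme of myeloid cells, was at 0.55 ± 0.19, the integrin gene Itgam at 0.40 ± 0.13, the complement gene C1qb at 0.33 ± 0.13 and Adgre1, which encodes F4/80, at 0.59 ± 0.29. The other 4 of the 14, all with overlapping groups, lay below 0: Ly6c2, a marker of inflammatory monocytes, at -0.19 ± 0.32, Mertk at -0.20 ± 0.17, Fcgr1 at -0.09 ± 0.13 and Cd14 at -0.04 ± 0.19. These 4 were chosen after their values were seen. The part of cell numbers in the chemokine values was not tested.

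Ccl3 and Ccl4, which activated macrophages and lymphocytes release, were low in all kidneys. Ccl4 had 1.48, 1.55 and 1.81 CPM in the knockout and 2.80, 1.94 and 5.42 CPM in the wild type. All knockout libraries lay below all wild-type libraries, though knockout replicate 3 and wild-type replicate 2 were close. The log2 fold change of Ccl4 was -1.07 ± 0.40 (unadjusted p = 0.0299, edgeR adjusted p = 0.627), and -0.55 without wild-type replicate 3. Ccl3 ranged from 0.666 to 2.68 CPM in the knockout and from 1.60 to 4.08 CPM in the wild type, at -0.79 ± 0.54. Ccl5, which T cells and macrophages make, had 21.6, 22.2 and 7.81 CPM in the knockout and 14.5, 23.5 and 23.1 CPM in the wild type. It stood at -0.25 ± 0.39, and the sign turned without knockout replicate 3 (0.10) and with the length trend removed (0.020).

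The myeloid ligands Ccl6 and Ccl9, both ligands of Ccr1 and far more abundant, did not share this direction. Ccl6 had 79.5, 79.8 and 104 CPM in the knockout and 46.7, 65.4 and 81.2 CPM in the wild type. Only wild-type replicate 3 reached into the knockout range, and the log2 fold change was 0.45 ± 0.22 (unadjusted p = 0.0743, edgeR adjusted p = 0.627). Ccl9 averaged 80.7 ± 8.77 CPM in the knockout and 75.8 ± 13.1 CPM in the wild type (SD, n = 3 each), at 0.09 ± 0.16. The receptor Ccr1 had 8.12, 10.6 and 25 CPM in the knockout and 17.0, 11.2 and 11.4 CPM in the wild type, at 0.14 ± 0.41, and stood at -0.50 without knockout replicate 3.

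Fractalkine had the highest 6-library mean TPM of the set, though not the highest in the wild type, and was the 1 gene whose knockout libraries all lay above the wild-type libraries. Cx3cl1 had 270.2, 435 and 291 CPM in the knockout and 211, 243 and 242 CPM in the wild type, a log2 fold change of 0.52 ± 0.21 (unadjusted p = 0.0409, edgeR adjusted p = 0.627). Knockout replicate 2 was far above the rest, and without it the fold change of Cx3cl1 was 0.27. With the length trend removed it was 0.48. Its receptor Cx3cr1 had 55.3, 62.6 and 51.9 CPM in the knockout and 53.4, 54.5 and 51.3 CPM in the wild type, a difference of 0.09 ± 0.12 that lay within the spread of the libraries.

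The ligands for effector T cells and natural killer cells parted company. Cxcl9, which interferon-gamma induces, had 21.6, 35.3 and 13.3 CPM in the knockout and 9.36, 12.2 and 15.8 CPM in the wild type. Its 2 highest libraries were knockout libraries, knockout replicate 3 lay among the wild-type values, and the log2 fold change was 0.91 ± 0.36 (unadjusted p = 0.0350, edgeR adjusted p = 0.627). Cxcl9 stood at 0.48 without knockout replicate 2. Cxcl10, which binds the same receptor Cxcr3, had 35.6, 44.5 and 21 CPM in the knockout and 26.4, 42.5 and 95.9 CPM in the wild type, at -0.70 ± 0.47. That value rested on wild-type replicate 3, since Cxcl10 was at -0.029 without it and 0.22 when replicate 3 was dropped from each group.

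Exons of Cxcl10 overlap those of Art3 on the other strand, exons of Cxcl16 overlap Zmynd15 and exons of Ccl25 overlap Elavl1. Whether counting used strand is not given in the sources used here, so such genes may share counts. Cxcl16 had 223, 256 and 223 CPM in the knockout and 148, 223 and 270 CPM in the wild type, at 0.13 ± 0.23. Of the receptors, Cxcr3 averaged 5.43 CPM in the knockout and 7.15 CPM in the wild type (-0.40 ± 0.36) and Cxcr6 averaged 5.47 CPM in the knockout and 8.26 CPM in the wild type (-0.60 ± 0.37). T cell markers summed to 62.9, 75.8 and 31.2 CPM in the knockout and 51.8, 69.5 and 72.4 CPM in the wild type. Natural killer cell markers summed to 12.9, 20.3 and 7.87 CPM in the knockout and 14.0, 16.6 and 24.5 CPM in the wild type. Knockout replicate 3 had the lowest sum in both lists, as it had the lowest Cxcl10 and Ccl5, but Cxcl9 and Cxcl16 were lowest in wild-type replicate 1. Knockout replicate 2 had the highest T cell sum and the highest Cxcl9. Wild-type replicate 3 had the highest natural killer cell sum and the highest Cxcl10 and Cxcl16, with Cxcl9 at 15.8 CPM. The part of cell numbers in these ligands was not tested. No marker of either list stood out at an unadjusted p under 0.05.

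Ccl17 and Ccl22, dendritic cell products that bind Ccr4 on Th2 and regulatory T cells, had the same highest and the same lowest library and did not separate the groups. Ccl22 had 12.3, 14.1 and 5.40 CPM in the knockout and 6.61, 7.48 and 14.9 CPM in the wild type, at 0.13 ± 0.43. Ccl17 had 5.75, 7.02 and 2.84 CPM in the knockout and 5.10, 4.53 and 10.8 CPM in the wild type, at -0.39 ± 0.44, and was at 0.11 without wild-type replicate 3. For both genes the highest was wild-type replicate 3 and the lowest was knockout replicate 3. Dendritic cell markers summed to 1112, 1173 and 584 CPM in the knockout and 691, 947 and 1132 CPM in the wild type. Their sum was also lowest in knockout replicate 3. H2-Ab1 made up most of it in each library, at 949, 1001 and 488 CPM in the knockout and 571, 809 and 988 CPM in the wild type. Ccr4 averaged under 1 CPM in both groups.

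The lymph node homing genes Ccl19, Ccl21a and Ccr7 were listed together with Ccl20, the Ccr6 ligand. The 4 fold changes had a median of 0.28, with 0 past the threshold, and those of Ccl21a and Ccl20 changed sign when a single library was left out (-0.22 for Ccl21a without knockout replicate 2). Ccl19, which draws dendritic cells and naive T cells through Ccr7, had 0.981, 3.28 and 1.45 CPM in the knockout and 1.01, 0.384 and 0.723 CPM in the wild type. It had the largest fold change of the set, 1.43 ± 0.55 (unadjusted p = 0.0312, edgeR adjusted p = 0.627), at a level near 1 CPM. Knockout replicate 2 stood out, and without it Ccl19 was at 0.79. Near-identical copies of Ccl19 and Ccl21a exist in the mouse genome, and the counting could have split their reads. Lymphoid stroma markers summed to 16.3, 15.0 and 6.63 CPM in the knockout and 11.2, 12.9 and 13.6 CPM in the wild type. Ccl21a, which lymphatic vessels display, averaged 3.28 ± 1.11 CPM in the knockout and 3.19 ± 0.343 CPM in the wild type (SD, n = 3 each), at 0.04 ± 0.31. Lymphatic endothelium markers summed to 92.8, 102 and 127 CPM in the knockout and 91.5, 86.3 and 75.0 CPM in the wild type. Most of each sum was Pdpn, at 67.7, 66.2 and 85.1 CPM in the knockout and 58.5, 58.6 and 53.3 CPM in the wild type. Of the 5 markers, 3 had a fold change above 0 and 2 below. Prox1, at -0.28 ± 0.41, was lowest in knockout replicate 3 (2.64 CPM), where the sum was highest.

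Ccr7 itself had 11.4, 8.85 and 4.73 CPM in the knockout and 5.43, 4.94 and 8.85 CPM in the wild type, at 0.38 ± 0.37. Ccl20, the Ccr6 ligand, had 1.87, 2.75 and 6.75 CPM in the knockout and 3.36, 2.81 and 3.83 CPM in the wild type, at 0.19 ± 0.47, and at -0.53 without knockout replicate 3. Ccr6 averaged 1.47 CPM in the knockout and 0.844 CPM in the wild type. The eosinophil attractant Ccl11 (eotaxin) had 0.935, 1.48 and 2.66 CPM in the knockout and 1.60, 0.526 and 0.936 CPM in the wild type, at 0.74 ± 0.52 with overlap. Its receptor Ccr3 reached at most 0.362 CPM in any library. Eosinophil and mast cell markers summed to 46.6, 50.7 and 47.8 CPM in the knockout and 46.0, 46.6 and 39.6 CPM in the wild type, nearly all of it from Kit and Il5ra. Il5ra had 10.3, 11.6 and 10.2 CPM in the knockout and 6.16, 8.90 and 9.13 CPM in the wild type. It stood at 0.41 ± 0.22 without overlap (8.95% of all genes). Siglecf, a more specific eosinophil marker, reached at most 1.22 CPM in any library, at 0.14 ± 0.38 with overlap, and Epx at most 0.101 CPM. Prg2, too low to test, had 0.502, 0.537 and 0.159 CPM in the knockout and 0.0941, 0.0809 and 0 CPM in the wild type. The means of Epx, Mcpt4 and Tpsb2, also untested, were lower in the knockout.

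Cxcl13, the B cell attractant of lymphoid follicles, was barely expressed, at 0.730, 0.472 and 0.139 CPM in the knockout and 0.282, 0.162 and 0.234 CPM in the wild type. The highest and the lowest library were both knockouts, and the log2 fold change was 0.97 ± 0.61. Its receptor Cxcr5 averaged 0.776 CPM in the knockout and 0.425 CPM in the wild type. B cell markers summed to 9.83, 12.4 and 8.06 CPM in the knockout and 10.0, 8.58 and 9.42 CPM in the wild type. Among plasma cell markers, the antibody joining chain Jchain had 88.2, 108 and 53.4 CPM in the knockout and 5.29, 6.72 and 3.55 CPM in the wild type (DESeq2 adjusted p = 5.52e-30, edgeR adjusted p = 0.0568). The other tested plasma cell markers overlapped between the groups, with Mzb1 at 0.24 ± 0.40, Derl3 at 0.35 ± 0.38 and Sdc1 at 0.26 ± 0.32. Ccl28, an epithelial ligand that draws antibody-secreting cells to mucosa, had 18.2, 19.9 and 5.36 CPM in the knockout and 6.09, 15.8 and 13.3 CPM in the wild type, at 0.30 ± 0.52. Its receptor Ccr10 averaged 0.830 CPM in the knockout and 0.658 CPM in the wild type.

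Ccl25, a gut and thymus ligand of Ccr9, had 4.13, 3.76 and 3.46 CPM in the knockout and 4.94, 4.21 and 5.17 CPM in the wild type. The groups did not overlap, but the distance was small, at -0.34 ± 0.23 (unadjusted p = 0.180, edgeR adjusted p = 0.666), and it lay between -0.41 and -0.27 with any single library left out. Ccl25 is the gene with a 7mer-A1 match among the 4 that do not overlap. Cxcl14, an epithelial and stromal ligand, had 47.7, 103 and 51.3 CPM in the knockout and 53.2, 55.7 and 35.7 CPM in the wild type, at 0.48 ± 0.32 (unadjusted p = 0.171, edgeR adjusted p = 0.662). Knockout replicate 2 carried that difference, and Cxcl14 was at 0.034 without it.

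Cxcl12, the stromal ligand that holds leukocytes and progenitors in tissue, had 110.5, 223 and 146 CPM in the knockout and 133, 154 and 109 CPM in the wild type, at 0.27 ± 0.26, and was at -0.050 without knockout replicate 2. Its receptor Cxcr4 averaged 17.1 ± 1.26 CPM in the knockout and 18.0 ± 3.90 CPM in the wild type (SD, n = 3 each), at -0.07 ± 0.20. The sign for Cxcr4 turned with the length trend removed (0.029). Ackr3, which binds and removes Cxcl12, had 74.0, 59.0 and 34.1 CPM in the knockout and 30.5, 72.1 and 95.4 CPM in the wild type, at -0.25 ± 0.42. Its wild-type libraries spanned more than the knockout libraries did, and without wild-type replicate 3 the value was 0.12.

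Fibroblast markers, beside which Cxcl12 and Cxcl14 can be read, summed to 2462, 4683 and 7203 CPM in the knockout and 3988, 2532 and 1838 CPM in the wild type, with all 8 fold changes above 0 and 0 past the adjusted threshold. All 8 had overlapping groups. Their median of 0.76 was 0.26 without knockout replicate 3 and 0.087 with replicate 3 omitted from both groups. The part of these markers was not tested. Ackr1, the scavenging receptor of venular endothelium, had 6 counts (0.119 CPM) in knockout replicate 3 and 0 in the other libraries. In those libraries 3 counts, the limit that a count of 0 allows, come to at most 0.0706 CPM. Exons of Ackr1 overlap those of Cadm3 on the same strand, so its counts may be shared with that gene or lost. Blood endothelium markers summed to 330.4, 559 and 936 CPM in the knockout and 680.3, 370.0 and 356 CPM in the wild type, the highest being in the library with Ackr1 counts.

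Single libraries set many of these values. Wild-type replicate 3 held the highest level of 15 of the 32 genes, knockout replicate 2 of 7, knockout replicate 3 of 6, knockout replicate 1 of 2, and wild-type replicates 1 and 2 of 1 each. Knockout replicate 3 held the lowest level of 10 genes. Of the 32 fold changes, 19 kept their sign with every single library left out and 17 under all alternatives tried. Those 17 are Cxcl1, Cxcl2, Cxcr2, Ccl2, Ccl7, Ccl12, Ccl3, Ccl4 and Ccl25 below 0, and Cx3cl1, Cxcl9, Ccl19, Ccl6, Ccl11, Ccr7, Cxcl13 and Cxcl14 above 0.

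**Figure D4:**
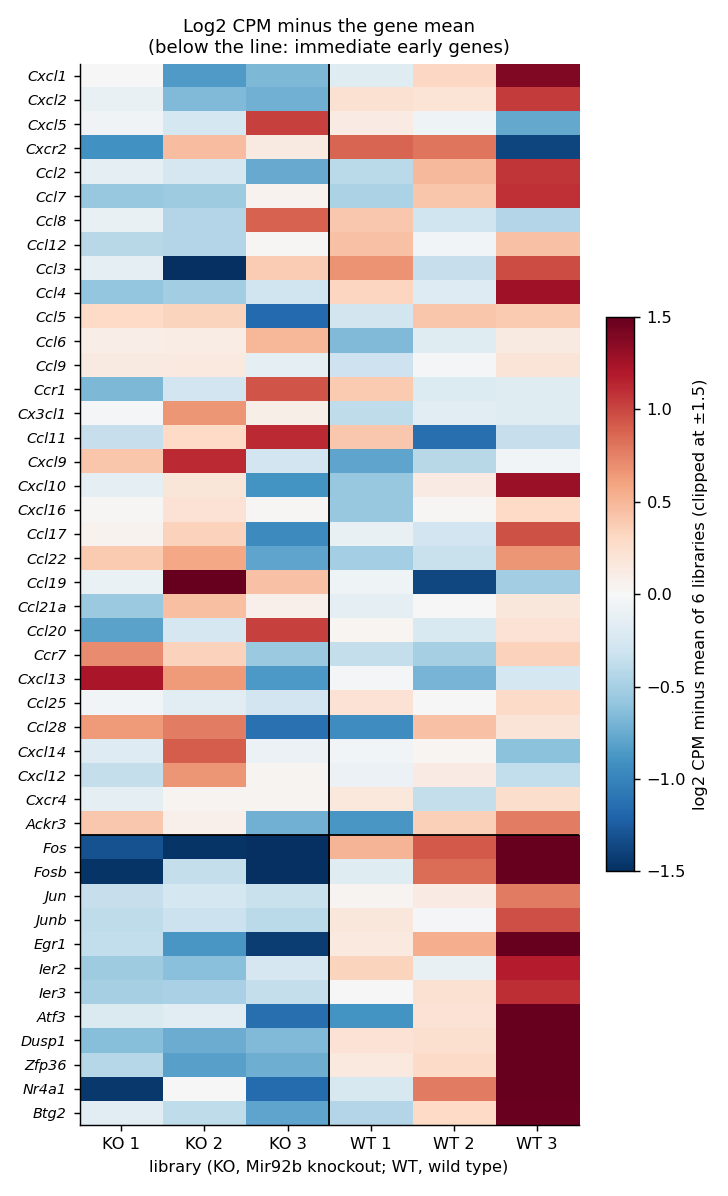
Log2 CPM of each gene in each library minus the mean of the 6 libraries, clipped at 1.5 in either direction, for the 32 chemokine genes and, below the line, 12 immediate early genes. Wild-type replicate 3 is darkest red for Cxcl1, Cxcl2, Ccl2, Ccl7, Ccl4 and Cxcl10 and for the immediate early genes, and the 3 knockout libraries are blue for most of the immediate early genes.

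**Figure D5:**
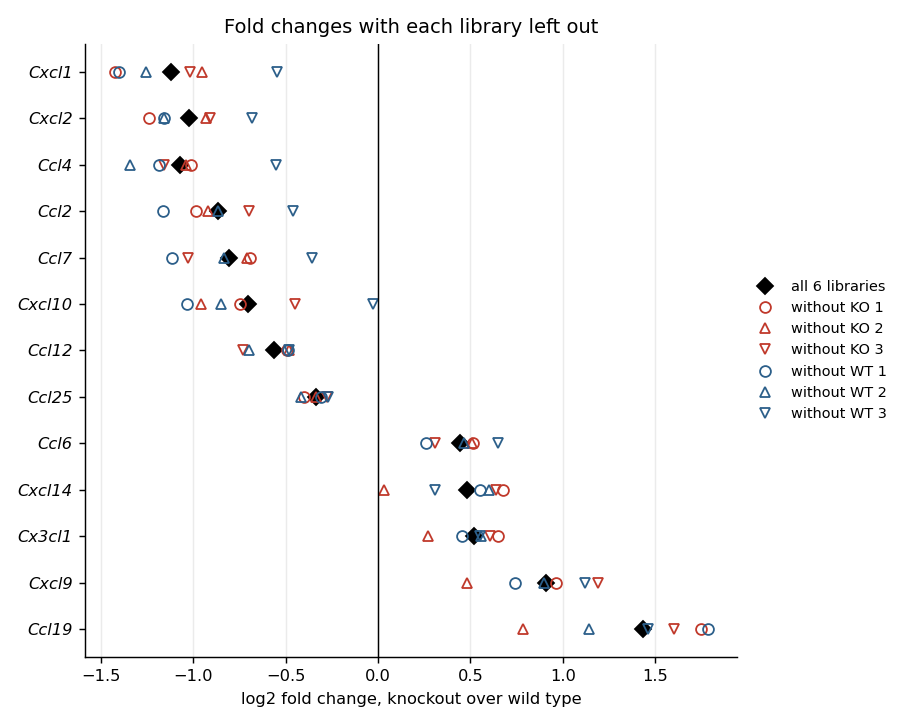
Log2 fold change, in the knockout relative to the wild type, of 13 genes with all 6 libraries (diamonds) and with each library left out in turn (open symbols). Without wild-type replicate 3 (open blue triangles pointing down) Cxcl1 stands at -0.55, Cxcl10 at -0.029 and Ccl7 at -0.35, and without knockout replicate 2 (open red triangles pointing up) Cxcl14 stands at 0.034 and Cx3cl1 at 0.27.

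The rest of the chemokine system gave no call either. Of 13 other ligand genes, 11 were tested, 7 had fold changes above 0 and 4 below, with a median of 0.30. That median was -0.36 with replicate 3 omitted from both groups, -0.18 without knockout replicate 3 and 0.57 with the length trend removed. Ccl21c averaged 0.535 CPM in the knockout and 1.10 CPM in the wild type, at -1.05 ± 0.66 with overlap. The platelet ligand Ppbp averaged 14.6 CPM in the knockout and 7.94 CPM in the wild type (0.88 ± 0.85), and the skin ligand Ccl27a 20.3 CPM in the knockout and 24.2 CPM in the wild type (-0.26 ± 0.22). Of 17 other receptor genes, 16 were tested, 9 above 0 and 7 below, with a median of 0.06. The groups of 1, Ccr3, did not overlap, lower in the knockout (7.20% of all genes) and at most 0.362 CPM in any library. None of the tested genes of either list stood out at an unadjusted p under 0.05.

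A further list held 26 genes that act downstream of chemokine receptors (G protein subunits, arrestins, regulators of G protein signalling, integrins). Of these, 18 fold changes were above 0, with a median of 0.17, and 0 passed the adjusted threshold. At an unadjusted p under 0.05 with edgeR, 1 was higher and 1 lower in the knockout, against 7.90% of all genes in either direction. The groups did not overlap for 2 on the higher side, Arrb1 and Gnai3 (8.95% of all genes). On the lower side this was so for 1, Rgs1 (7.20% of all genes). Arrb1, which encodes a beta-arrestin that shuts down receptor signalling, had 137, 197 and 157 CPM in the knockout and 109, 132 and 108 CPM in the wild type, at 0.49 ± 0.18 without overlap (unadjusted p = 0.0239, edgeR adjusted p = 0.627). Rgs1, which blunts G protein signalling in lymphocytes and other leukocytes, had 4.54, 3.76 and 3.36 CPM in the knockout and 5.72, 5.97 and 19.5 CPM in the wild type, at -1.42 ± 0.49 without overlap (unadjusted p = 0.0200, edgeR adjusted p = 0.627). Like Cxcl1 and Ccl4, Rgs1 was highest in wild-type replicate 3. Pik3r5, a subunit of the phosphoinositide kinase that chemokine receptors activate, was at 0.48 ± 0.21, and Itgb1, the beta-1 integrin, at 0.45 ± 0.22.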

How the data were processed

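RNA sequencing was done on 6 ligated kidneys, 3 knockout and 3 wild type. Per the labels' protocols, RNA was purified on columns and the library kit was SMARTER mRNA-Seq. The authors deposited raw read counts for each gene symbol, not normalised. The submitters' processing notes name the build as GRCm38 and mm10. The aligner, the counting program and the strand setting were not given in the sources used here.

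The 18927 genes kept by filterByExpr were scaled by TMM and tested in edgeR 4.0.16 under R 4.3.3 with its quasi-likelihood F test (robust fit, no covariates). Benjamini-Hochberg adjustment ran over all tested genes, with a threshold of 0.05. The SE of a fold change is its log2 value over the root of F. The biological coefficient of variation was 26.9%. TPM used the longest protein-coding GENCODE M21 transcript of each symbol. The alternatives were DESeq2 1.42.0, limma-voom 3.58.1 with quality weights, DESeq2 size factors, library size alone, no filter, 1 CPM in 3 libraries, a loess trend of deviation on length removed, a replicate block, each library omitted, and replicate 3 omitted from both groups. The code was tested on simulated counts.

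The members and gene lists were chosen with earlier results of these data known. All members are accounted for. Values per library are given for members averaging 1 CPM or more in a group that are among the 12 smallest p-values or have groups without overlap, and for some others. From other lists, up to 4 genes with the smallest p were eligible to be named, besides the receptors of the ligands, and the immediate early genes were chosen after their values were seen. Some further marker genes were named outside this rule, with their values seen. A receptor that could be named is left out and not reported here.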

Additional observations from a re-analysis of the deposited data

How the results depend on the processing

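The call of 0 members held with edgeR, DESeq2 and limma-voom. Over all tested genes, where edgeR called 0 in each direction, DESeq2 called 34 higher and 28 lower, limma-voom 1 higher and 2 lower, and edgeR without a filter 1 higher and 1 lower. The replicate block and the omission of replicate 3 from both groups each gave 1 higher, and omitting single libraries gave 0 to 1 higher. Nothing in the labels pairs the replicate numbers across the groups. Deviations of same-numbered libraries correlated at -0.28, 0.18 and -0.29 over 18927 genes. Among unlike-numbered libraries the highest value was 0.37, for knockout replicate 3 with wild-type replicate 1. Such values cannot settle whether libraries were paired, since each deviation is taken from a mean of 3 libraries. In a paired fit with the replicate block, the members' median was -0.0091, Ccr1 was at -0.0067, Ccl21a at -0.012 and Ccl20 at -0.011, each turned from a value above 0. The members' median of 0.11 ran from -0.074 to 0.13 with single libraries omitted. Members whose groups did not overlap numbered 1 higher and 3 lower, but 2 higher and 4 lower with library size alone (Ccl6 and Ccl12 were added), and 4 higher and 1 lower with the length trend removed (Ccl19, Ccl6, Ccl8 and Cx3cl1 above, Cxcl2 below). Of 479 values of members under 15 alternatives, 36 had the other sign. With limma-voom, Ccr1 was at -0.064, Ccl20 at -0.071, Ccl17 at 0.21 and Cxcr4 at 0.23. With the length trend removed, Ccl5 was at 0.020 and Cxcr4 at 0.029. Omitting replicate 3 from both groups turned Cxcl5 (-0.19), Ccl8 (-0.36), Ccl5 (0.21), Ccr1 (-0.59), Cxcl10 (0.22), Ccl17 (0.41), Ccl20 (-0.41), Cxcr4 (0.028) and Ackr3 (0.38). With single libraries omitted, signs turned within these ranges: Ccl8 -0.20 to 0.60, Ccl5 -0.48 to 0.10, Ccl9 -0.031 to 0.22, Ccr1 -0.50 to 0.43, Cxcl16 -0.074 to 0.34, Ccl17 -0.67 to 0.11, Ccl22 -0.13 to 0.59, Ccl21a -0.22 to 0.27, Ccl20 -0.53 to 0.51, Ccl28 -0.0096 to 0.70, Cxcl12 -0.050 to 0.48, Cxcr4 -0.23 to 0.061 and Ackr3 -0.59 to 0.12. The cause of these turns was not tested. With 3 libraries a group, Cxcl13 rests on 7 to 32 counts per library.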
